A study of Mus musculus with 12 samples.

Results

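The 10 genes described here make, remove or carry retinoic acid in the embryo: Rdh10, Dhrs3, Aldh1a2, Aldh1a3, Stra6, Cyp26a1, Cyp26b1, Cyp26c1, Crabp1 and Crabp2. They were taken by symbol from a count table of 23284 genes, and all 10 had enough counts to enter the test of 14412 genes. RNA was sequenced from single whole mouse embryos of mixed C57BL/6 x 129Sv background at 9.0 dpc, with 9 to 10 somites, after poly-A selection. There were 4 embryos labelled wild type (WT) and 8 labelled Tgif1;Tgif2 null, titled CDKO and described by the submitters as conditional double mutants lacking both alleles of each gene. Which promoter drives the deletion, which cells it spares and which litters the embryos came from is not stated in the labels. Tgif1 and Tgif2 encode related homeodomain repressors, and Tgif1 is known to bind the retinoid X receptor and to limit retinoid-driven transcription, so the comparison bears on the retinoic acid pathway.

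Retinoic acid is made from vitamin A in a pair of oxidations, from retinol to retinal and from retinal to retinoic acid, and enters the nucleus to act on receptors bound to DNA. Cells next to a source destroy it with CYP26 enzymes, so the level in each tissue follows from where the synthesising and degrading enzymes are expressed. At this age Aldh1a2 is known from somites and lateral mesoderm, Cyp26a1 from the tail bud, Cyp26b1 and Cyp26c1 from the hindbrain and Crabp1 from hindbrain and migrating neural crest. Counts from whole embryos hold no anatomy: fewer cells of a type and less RNA per cell cannot be told apart.

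Wild-type libraries summed to between 17296017 and 20080786 counts, those of the other group to between 16802367 and 21346245. Levels are counts scaled to library size with TMM (CPM). Tgif1 was low in all 8 CDKO-titled embryos (5.5 to 6.87 CPM against 58.5 to 64.2 CPM). Tgif2 was not (84.4 to 116 CPM against 85.7 to 88.5 CPM, adjusted p = 0.0958, edgeR), and without mutant-labelled embryo 8 it passed as higher (log2 fold change 0.19, adjusted p = 0.0446). Tgif2 has 2 near-identical copies in the transcript set, and the labels do not say which exons were deleted. These 8 embryos are therefore called mutant-labelled, since only their labels give the genotype at Tgif2. Differences between the groups were widespread: 51.5% of all genes tested passed an adjusted p of 0.05, 26.6% as higher and 24.9% as lower in the mutant-labelled embryos, and in 34.7% the groups did not overlap. Mutant-labelled embryo 2 stood apart in tail bud genes, with a mean log2 level of 1.6 over 18 markers against 3.14 to 4.01 in the other mutant-labelled embryos.

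Retinoic acid receptors bind direct repeats of a 6-base unit. The RefSeq windows from 250 bases before to 50 bases after each gene start (GRCm38.p6) were searched for such repeats. Among the 7 members with such a window, only Cyp26a1 held such a repeat, with a spacer of 5 bases. The unit searched was AGGTCA or the variant AGTTCA, and likewise the variant spelled GGGTCA or the variant spelled GGTTCA. Any pair counted, on both strands, with spacers of 1, 2 or 5 bases. Of all 32851 windows, 0.0974% held the repeat with a spacer of 5 bases, 0.268% that with 2 and 0.222% that with 1. The receptor gene Rarb, which is known to be induced by retinoic acid, was searched as a reference gene, and its window held a repeat of this kind. The stretches below are 5′ to 3′ on the strand of the gene, with the units in capitals.
Cyp26a1, chr19:37697770-37697799, plus strand: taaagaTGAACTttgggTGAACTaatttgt
Rarb, chr14:16575506-16575535, minus strand: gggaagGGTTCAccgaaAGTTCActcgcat
Read on the strand opposite to the gene, the Cyp26a1 element is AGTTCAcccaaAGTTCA, and 15 of its 17 bases are the same as in the Rarb element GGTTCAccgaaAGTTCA. The units searched share most of their bases, so much of this likeness was set by the search. The Cyp26a1 element lies 32 to 16 bases before the start used for the window, which is 70 bases inside the span of the RefSeq gene record. For Rarb the start used is 506855 bases inside its record. Cyp26c1 is the neighbouring protein-coding gene of Cyp26a1 on chromosome 19 in the same annotation, and its window held none of these letters. Matches and their absence describe these windows only, and binding of receptors to them was not tested.

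Of the 10 members, 3 rose (Rdh10, Dhrs3 and Cyp26b1), 1 fell (Stra6) and 6 did not pass the test (Aldh1a2, Aldh1a3, Cyp26a1, Cyp26c1, Crabp1 and Crabp2). The share called was 40%, beside 51.5% of all genes tested. With 10 members these shares cannot be told apart, and the number called ran from 4 in the main fit to 7 with sample quality weights in limma-voom. The median log2 fold change of the 10 was 0.1, beside 0.01 over all genes tested. Groups did not overlap in 3 members (Rdh10, Dhrs3 and Cyp26a1), beside 34.7% of all genes. The calls lay at several steps of the pathway and in both directions, with rises in an enzyme that makes retinal, an enzyme that reduces it back to retinol and an enzyme that degrades retinoic acid, and a fall in the receptor for retinol uptake.

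**Figure D1:**
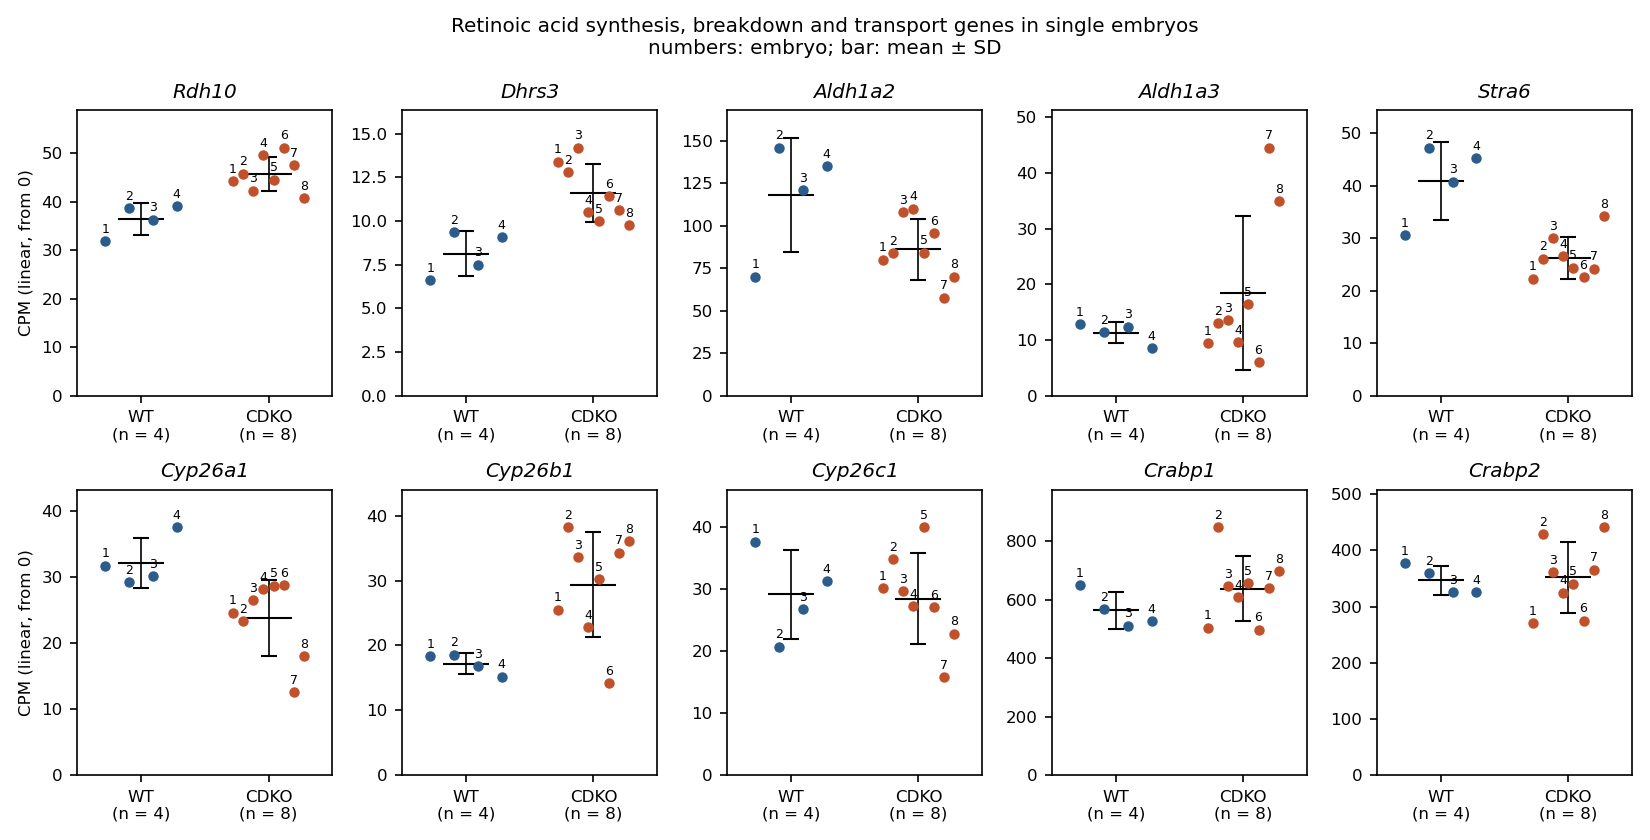
Levels of the 10 members in CPM (linear axes that start at 0) in 4 WT and 8 CDKO embryos, each point 1 embryo with its number, the bars mean ± SD. Rdh10 and Dhrs3 lie higher and Cyp26a1 lower in every CDKO embryo than in any WT embryo, and CDKO embryos 7 and 8 stand high in Aldh1a3 (44.6 and 35 CPM).

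Per kilobase of exon, the carriers were the most abundant members in wild type. Crabp1 stood at 703 ± 77.7 CPM per kb (SD, n = 4) and Crabp2 at 262 ± 19.4 CPM per kb. Aldh1a2 followed at 52.1 ± 14.9 CPM per kb, and each of these ranges was clear of the next. Cyp26c1 and Cyp26a1 were level within their spread at 16.6 ± 4.09 and 16.2 ± 1.92 CPM per kb. Rdh10 (8.78 ± 0.794 CPM per kb) and Stra6 (7.04 ± 1.27 CPM per kb) also overlapped each other. Among the lowest members, Dhrs3 (2.78 ± 0.448 CPM per kb) overlapped both Cyp26b1 (3.22 ± 0.291) and Aldh1a3 (2.44 ± 0.412), while the ranges of Cyp26b1 (2.84 to 3.47) and Aldh1a3 (1.86 to 2.77 CPM per kb) were apart. Lengths are of the union of GENCODE M21 exons, and the gene models behind the counts are not stated. Stra6, with alternative first exons, would stand at 13.3 CPM per kb over its longest transcript.

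The retinol-retinal step had a rise on both sides. Rdh10, the dehydrogenase that makes most retinal in the mouse embryo, stood at 31.9, 38.7, 36.3 and 39.1 CPM in wild-type embryos 1 to 4 and at 40.7 to 51.2 CPM (median 45.2) in the mutant-labelled embryos. Every mutant-labelled embryo was above every wild-type embryo, as in 17.5% of all genes tested. Rdh10 rose by 0.32 on the log2 scale (SE 0.07, adjusted p = 0.00157, edgeR), a fold of 1.25. Dhrs3, the reductase that turns retinal back into retinol and is itself induced by retinoic acid, was measured at 6.6, 9.37, 7.49 and 9.07 CPM in wild type and at 9.76 to 14.2 CPM (median 11) in the mutant-labelled embryos. The groups again did not overlap, though wild-type embryo 2 and mutant-labelled embryo 8 lay close. Dhrs3 rose by 0.51 (SE 0.13, adjusted p = 0.00423), a fold of 1.42. These were also the members with the least spread among the mutant-labelled embryos, with highest-to-lowest ratios of 1.26 for Rdh10 and 1.46 for Dhrs3. The ratio of Dhrs3 to Rdh10 within an embryo ran from 0.206 to 0.242 in wild type and from 0.211 to 0.336 in the mutant-labelled embryos.

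The retinaldehyde dehydrogenase genes among the members, Aldh1a2 and Aldh1a3, did not pass. Their enzymes carry out the second oxidation. Aldh1a2, the main source of retinoic acid at this age, stood at 70, 146, 121 and 135 CPM in wild-type embryos 1 to 4 and at 57.6 to 110 CPM (median 83.9) in the mutant-labelled embryos. Wild-type embryo 1 lay inside the mutant-labelled range and the other wild-type embryos above it. The log2 fold change was -0.45 (SE 0.20, adjusted p = 0.0785), with all 8 mutant-labelled embryos under the wild-type mean. Leaving out 1 embryo at a time (12 fits) gave -0.64 to -0.33, with adjusted p from 0.00802 to 0.237 (edgeR). Without wild-type embryo 1 the difference was -0.64 and passed (adjusted p = 0.00802). That embryo was also the lowest wild-type embryo in the mean log2 level of 5 of the 8 tissue marker lists. These were formed somite markers (3.22 against 3.59 to 3.9) and lateral plate markers (4.11 against 4.52 to 4.73), both from tissues of Aldh1a2 expression, and tail bud (4.28 against 4.57 to 4.72), yolk sac (4.78 against 6.06 to 6.59) and red cell markers (3.82 against 4.05 to 4.41). Formed somite markers summed to 252 to 379 CPM in wild type and to 214 to 292 CPM in the mutant-labelled embryos, and none was at 0. Of the 14, 6 fell and none rose, 42.9% called beside 51.5% of all genes tested (24.9% as lower). The part of these tissues in the Aldh1a2 values was not tested.

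Aldh1a3, an enzyme of the same family that is known from the eye, the nasal region and the surface of the head, varied most among mutant-labelled embryos. It stood at 12.8, 11.4, 12.4 and 8.57 CPM in wild type, at 6.06 to 16.5 CPM in mutant-labelled embryos 1 to 6, and at 44.6 and 35 CPM in mutant-labelled embryos 7 and 8. The first 6 surround the wild-type values, and the remaining pair lies far above both. The log2 fold change was 0.71 (SE 0.52, adjusted p = 0.275) with all embryos, and 0.01 (adjusted p = 0.971) without embryos 7 and 8. The ratio of Aldh1a3 to Aldh1a2 was 0.776 and 0.5 in that pair, and 0.0632 to 0.196 in every other embryo. Of 11 optic and forebrain markers tested, 1 rose and 4 fell, 45.5% called beside 51.5% of all genes tested. These markers were mixed in that pair. Their mean log2 level was 3.3 and 3.22 in embryos 7 and 8, within the 2.83 to 3.35 of embryos 1 to 6, and their summed level was 218 to 313 CPM in wild type and 184 to 247 CPM in the mutant-labelled embryos. Single markers, picked after their values were seen, differed in direction. Six6 was at 9.02 and 7.02 CPM in embryos 7 and 8 against 1.67 to 4.59 CPM in embryos 1 to 6, and Lhx2 and Mitf were also highest in that pair among the mutant-labelled embryos. Hesx1 was lowest there, at 0.815 and 0.883 CPM against 2.02 to 3.19 CPM. Vax2 was at 0 in some embryos and was not tested. The part of eye and forebrain tissue in the Aldh1a3 values was not tested.

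Stra6, the membrane receptor that takes up retinol from its plasma carrier, was the member that fell. It stood at 30.6, 47.3, 40.8 and 45.3 CPM in wild-type embryos 1 to 4 and at 22.3 to 34.2 CPM (median 25.3) in the mutant-labelled embryos. The overlap came from wild-type embryo 1 and mutant-labelled embryo 8, and all 8 mutant-labelled embryos lay under the wild-type mean. Stra6 fell by 0.64 on the log2 scale (SE 0.12, adjusted p = 0.000562), a fold of 0.641. Over 12 fits that each left out 1 embryo it ranged from -0.76 to -0.57, with adjusted p of at most 0.00343. Yolk sac endoderm, a possible source of Stra6 reads in a whole embryo, varied widely within both groups, with summed marker levels of 695 to 2530 CPM in wild type and 803 to 3730 CPM in the mutant-labelled embryos. None of its 15 markers passed the edgeR test, beside 51.5% of all genes tested, and none was at 0. The part of yolk sac endoderm in the Stra6 values was not tested.

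The 3 CYP26 genes, whose enzymes oxidise retinoic acid to inactive products, gave 3 different results. Cyp26b1 stood at 18.3, 18.6, 16.8 and 15.2 CPM in wild type and at 14.2 to 38.3 CPM (median 31.9) in the mutant-labelled embryos. Embryo 6 held the lowest value of all, and the other 7 mutant-labelled embryos, from 22.8 CPM up, were above every wild-type embryo. Cyp26b1 rose by 0.77 (SE 0.22, adjusted p = 0.00934), a fold of 1.71, the largest change among the members that passed. Leaving out 1 embryo at a time (12 fits) gave 0.71 to 0.87, with adjusted p of at most 0.0322. The highest, 0.87 (adjusted p = 0.000105), came without embryo 6.

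Cyp26a1 was lower in every mutant-labelled embryo than in any wild-type embryo, as were 17.1% of all genes tested. It did not pass in the main fit (edgeR), and the call was the same in 18 of 24 alternatives. It passed with DESeq2 (adjusted p = 0.0298) and limma-voom (0.0369, and 0.0252 with sample quality weights). After GC and length trends were taken out it also passed (adjusted p = 0.0184, edgeR). It stood at 31.7, 29.2, 30.1 and 37.6 CPM in wild type and at 12.6 to 28.8 CPM (median 25.6) in the mutant-labelled embryos. Embryos 1 to 6, from 23.3 CPM up, lay closest to the wild-type range, and embryos 7 and 8 stood lowest at 12.6 and 18 CPM. The log2 fold change was -0.43 (SE 0.18, adjusted p = 0.0616, edgeR), with a 95% interval of -0.82 to -0.04 before adjustment. Leaving out 1 embryo at a time (12 fits) gave -0.48 to -0.34, with adjusted p from 0.0244 to 0.178. Without embryo 7 the log2 fold change was -0.34 and passed (adjusted p = 0.0244). Without embryos 7 and 8 it was -0.27 and passed (adjusted p = 0.0169): the difference was smaller but so was the spread. Rarb, which carries the similar element shown above, stood at 23.8, 31.8, 30 and 27 CPM in wild type and at 26.8 to 38.1 CPM (median 33.1) in the mutant-labelled embryos. Its log2 fold change was 0.21 (SE 0.09, adjusted p = 0.0768, edgeR) and did not pass. The 12 fits that each left out 1 embryo gave 0.13 to 0.27, with adjusted p from 0.0271 to 0.275. Rarb passed without wild-type embryo 2 (0.27, adjusted p = 0.0445) or without mutant-labelled embryo 6 (0.24, adjusted p = 0.0271).

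The tail bud, where Cyp26a1 is known to be expressed, differed between the groups as well. Of 18 tail bud markers 10 fell and none rose, 55.6% called beside 51.5% of all genes tested (24.9% as lower). Their summed level was 529 to 693 CPM in wild type and 99.5 to 445 CPM in the mutant-labelled embryos. The caudal-type gene Cdx4, which did not pass (adjusted p = 0.108, edgeR), ranged from 64.1 to 87.8 CPM in wild type. It was at 19.6 and 27 CPM in embryos 7 and 8, and at 0.238 CPM in mutant-labelled embryo 2, where Msgn1 had no count. Cyp26a1 in embryo 2 was 23.3 CPM, inside the range of its group. The part of tail bud tissue in the Cyp26a1 difference was not tested.

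Cyp26c1, the third degrading enzyme, stood at 37.6, 20.7, 26.7 and 31.3 CPM in wild type and at 15.8 to 40 CPM (median 28.4) in the mutant-labelled embryos. The ranges coincide. The log2 fold change was -0.03 (SE 0.21, adjusted p = 0.919) with a 95% interval of -0.49 to 0.43, so these embryos leave room for a difference in either direction. The ratio of Cyp26b1 to Cyp26a1 within an embryo ran from 0.404 to 0.637 in wild type and from 0.494 to 2.73 in the mutant-labelled embryos, where only embryo 6 lay inside the wild-type range. Hindbrain markers, from a tissue of Cyp26b1 and Cyp26c1 expression, summed to 357 to 401 CPM in wild type and to 352 to 412 CPM in the other group. Of the 12, 3 were higher, 2 lower and none at 0, 41.7% called beside 51.5% of all genes tested.

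The cellular retinoic acid binding proteins, which hold retinoic acid in the cytoplasm and pass it to degrading enzymes (Crabp1) or to receptors (Crabp2), did not pass. Crabp1 ranged from 512 to 651 CPM in wild type (564 ± 62.3, SD, n = 4) and from 498 to 850 CPM (median 644) in the mutant-labelled embryos. Crabp2 stood at 377, 359, 326 and 326 CPM in wild type and at 271 to 442 CPM (median 351) in the mutant-labelled embryos. In both genes the mutant-labelled range extends past the wild-type range at each end. The log2 fold change was 0.18 (SE 0.12, adjusted p = 0.248, 95% interval -0.09 to 0.45) for Crabp1 and 0.02 (SE 0.12, adjusted p = 0.91, 95% interval -0.24 to 0.28) for Crabp2. Within an embryo Crabp1 was 1.57 to 1.72 times Crabp2 in wild type. The ratio was 1.75 to 1.98, above every wild-type embryo, in all mutant-labelled embryos but embryo 8, where it was 1.58. This difference in ratio was not tested. Neural crest markers, from a tissue of Crabp1 expression, summed to 535 to 576 CPM in wild type and 527 to 694 CPM in the other group. Of the 12, 2 rose, 1 fell and none was at 0, 25% called beside 51.5% of all genes tested.

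Spread between mutant-labelled embryos was set beside that of genes of like abundance, as a description. Among genes with a mean level within 2-fold of the member, the SD of log2 level over the mutant-labelled embryos was at the 99.1 percentile for Aldh1a3, 98.4 for Aldh1a2, 97.5 for Cyp26b1, 96.9 for Cyp26c1 and 96.8 for Cyp26a1. Rdh10 and Dhrs3 stood at 41.7 and 55. Over the wild-type embryos Aldh1a2 was at the 99.6, Cyp26c1 at the 98 and Stra6 at the 96.8 percentile. Crabp1 and Crabp2 stood at 95 and 96.6 over the mutant-labelled embryos, and Stra6 at 82.3. Over the mutant-labelled embryos a percentile of 95 or more was thus reached by 7 members, and not by Stra6 or the enzyme pair of the retinol-retinal step.

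**Figure D2:**
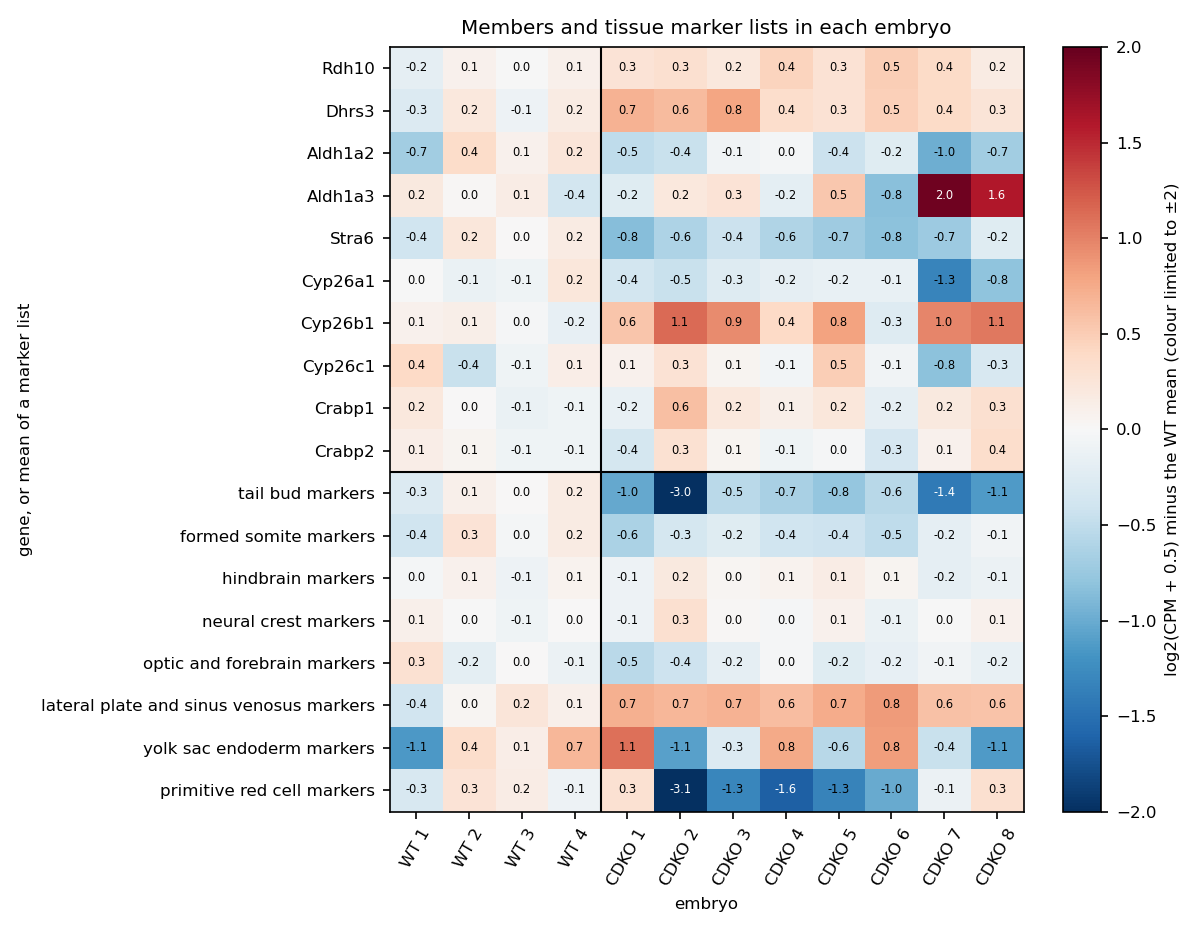
Level of each member, and mean of each tissue marker list, in every embryo as log2(CPM + 0.5) minus the WT mean (colour scale limited to 2 on either side; the numbers are the values). Stra6 is low across the CDKO columns, CDKO embryos 7 and 8 differ from the rest in Aldh1a3 and Cyp26a1, and tail bud markers are lowest in CDKO embryo 2.

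The genes with the nearest profiles over the 12 embryos were sought for the 3 members with the widest range, by the root mean square difference of log2 levels centred on each gene's own mean, among 13299 genes of at least 1 CPM. For Aldh1a3 they included Pou3f3 (0.22) and Neurog1 (0.24), against a median of 0.78 over all genes; both encode transcription factors of neural progenitors or neurons. Pou3f3 was at 23.8 and 21.1 CPM in mutant-labelled embryos 7 and 8 and at 4 to 9.75 CPM in the other 10 embryos. For Cyp26a1 they were Cdk18 (0.11), the DNA methyltransferase gene Dnmt3b (0.12) and Etv5, a target of FGF signalling (0.16), against a median of 0.43. Dnmt3b was at 68.3 and 88.5 CPM in embryos 7 and 8, between 122 and 144 CPM in embryos 1 to 6 and between 158 and 182 CPM in wild type. For Cyp26b1 they were Odz2 (0.15), Txlnb (0.17) and Fam101a (0.19), against a median of 0.52, and embryo 6 was the lowest mutant-labelled embryo in each of them. The profiles share libraries and the difference between the groups, and these genes were picked for likeness, so no test applies.

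**Figure D3:**
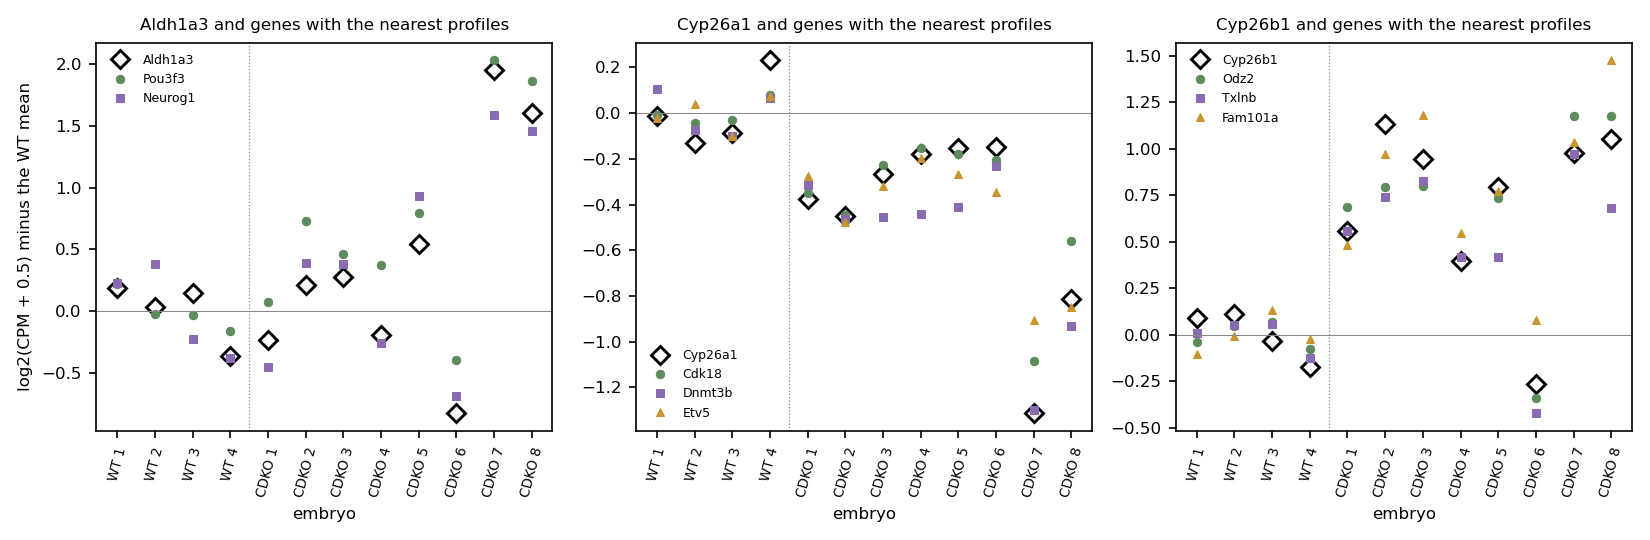
Log2(CPM + 0.5) minus the WT mean in each embryo for Aldh1a3, Cyp26a1 and Cyp26b1 (open diamonds) and genes with the nearest profiles to each (2 shown for Aldh1a3, 3 for the others). CDKO embryos 7 and 8 are high for the Aldh1a3 set and low for the Cyp26a1 set, and CDKO embryo 6 is low for the Cyp26b1 set.

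Other genes of the pathway, in 5 lists of 77 genes in all, moved in both directions too. Of 61 tested, 16 rose, 11 fell and 34 did not pass, which is 44.3% called beside 51.5% of all genes, with a median log2 fold change of 0.08 beside 0.01. Of 17 other retinoid enzymes tested (28 listed), 6 rose and 3 fell, 52.9% called. Rdh12, which encodes a retinal reductase, had means of 1.56 ± 0.175 CPM (SD, n = 4 wild type) and 3.66 ± 0.445 CPM (n = 8 mutant-labelled) and rose by 1.23 on the log2 scale (SE 0.15), its relative Rdh11 by 0.63 (SE 0.10) and Cyp1b1, which encodes an oxidase that can make retinoic acid, by 0.94 (SE 0.16). Bco2, a carotenoid-cleaving enzyme gene, fell by 1.85 (SE 0.31) from 0.966 CPM. Adjusted p of these 4 lay between 7.29e-06 and 0.000175 (edgeR). Aldh1a1, the third retinaldehyde dehydrogenase gene, had few counts, with means of 0.79 CPM (wild type) and 0.31 CPM (mutant-labelled), and fell by 1.34 (SE 0.33, adjusted p = 0.00343); it was picked after its values were seen.

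Of 7 other carriers tested (9 listed), 1 rose and 1 fell, 28.6% called beside 51.5% of all genes tested. Rlbp1, a retinal binder of the eye, fell by 0.90 (SE 0.33, adjusted p = 0.0343) from 0.808 CPM, and the call was lost in 6 of the 12 fits without 1 embryo: without any of the wild-type embryos, or without mutant-labelled embryo 1 or 8 (adjusted p = 0.0522 to 0.0889). The retinol receptor gene listed as 1300002K09Rik (Stra6l) stood at 2.94 to 4.32 CPM in wild type, and at 0.143 CPM in mutant-labelled embryo 2 against 2.02 to 3.3 CPM in the others of that group (adjusted p = 0.239). Fabp5, a lipid carrier with 2 near-identical copies and so with uncertain counts, did not pass (0.10, SE 0.07, adjusted p = 0.275).

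Of the 6 nuclear receptors, 3 rose and none fell, 50% called beside 51.5% of all genes tested. Rara stood at 46.1, 57.2, 54.1 and 54.3 CPM in wild type and at 64.6 to 86.5 CPM in the mutant-labelled embryos and rose by 0.45 (SE 0.08, adjusted p = 0.000231). Rxrb rose by 0.26 (SE 0.06) and Rxrg by 0.73 (SE 0.18, from 1.91 CPM), each without overlap of the groups, and Rxrb by 0.13 with trends on GC content and length taken out. Rxra, which encodes the receptor known to bind Tgif1, had means of 102 ± 4.4 CPM (wild type) and 101 ± 6.34 CPM (mutant-labelled; -0.02, SE 0.05, adjusted p = 0.802). Of 12 receptor cofactors tested (13 listed), 1 rose and 5 fell, again 50% called. The coactivator gene Ncoa1 had means of 8.97 ± 1.23 CPM (wild type) and 30.4 ± 3.68 CPM (mutant-labelled) and rose by 1.76 (SE 0.11, adjusted p = 1.51e-08). Its relative Ncoa3 fell by 0.28 (SE 0.07). Tbl1x and Tbl1xr1, subunits of the corepressor complex, fell by 0.31 (SE 0.10) and 0.21 (SE 0.07), and Tbl1xr1 no longer passed when wild-type embryo 1 was left out (-0.16, adjusted p = 0.0653) and after GC and length trends were taken out (-0.03, adjusted p = 0.767).

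Of 22 genes listed as retinoic acid targets and tested (24 listed), 6 rose, 2 fell and 14 did not pass. This is 36.4% called beside 51.5% of all genes tested. The list does not say in which direction retinoic acid moves each gene, so these counts give no direction for the pathway. Tgm2, a transglutaminase gene induced by retinoic acid, stood at 29.5, 40.6, 41.3 and 38.2 CPM in wild type and at 57.5 to 69 CPM in the mutant-labelled embryos, and rose by 0.70 (SE 0.08, adjusted p = 5.3e-06). Cdx1, a caudal-type gene that is also a tail bud marker, fell by 1.41 (SE 0.30, adjusted p = 0.00187), from 22.2 to 36.3 CPM in wild type to 4.02 to 16.8 CPM. Tlx2 fell by 1.79 (SE 0.43, adjusted p = 0.00268) from 1.09 CPM. The early hindbrain target Hoxb1 (0.22, SE 0.17, adjusted p = 0.312), named here after its values were seen, did not pass. Some genes, Rarb and Nrip1 among them, stand in more than 1 of these lists and were counted once in the total of 61.

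**Figure D4:**
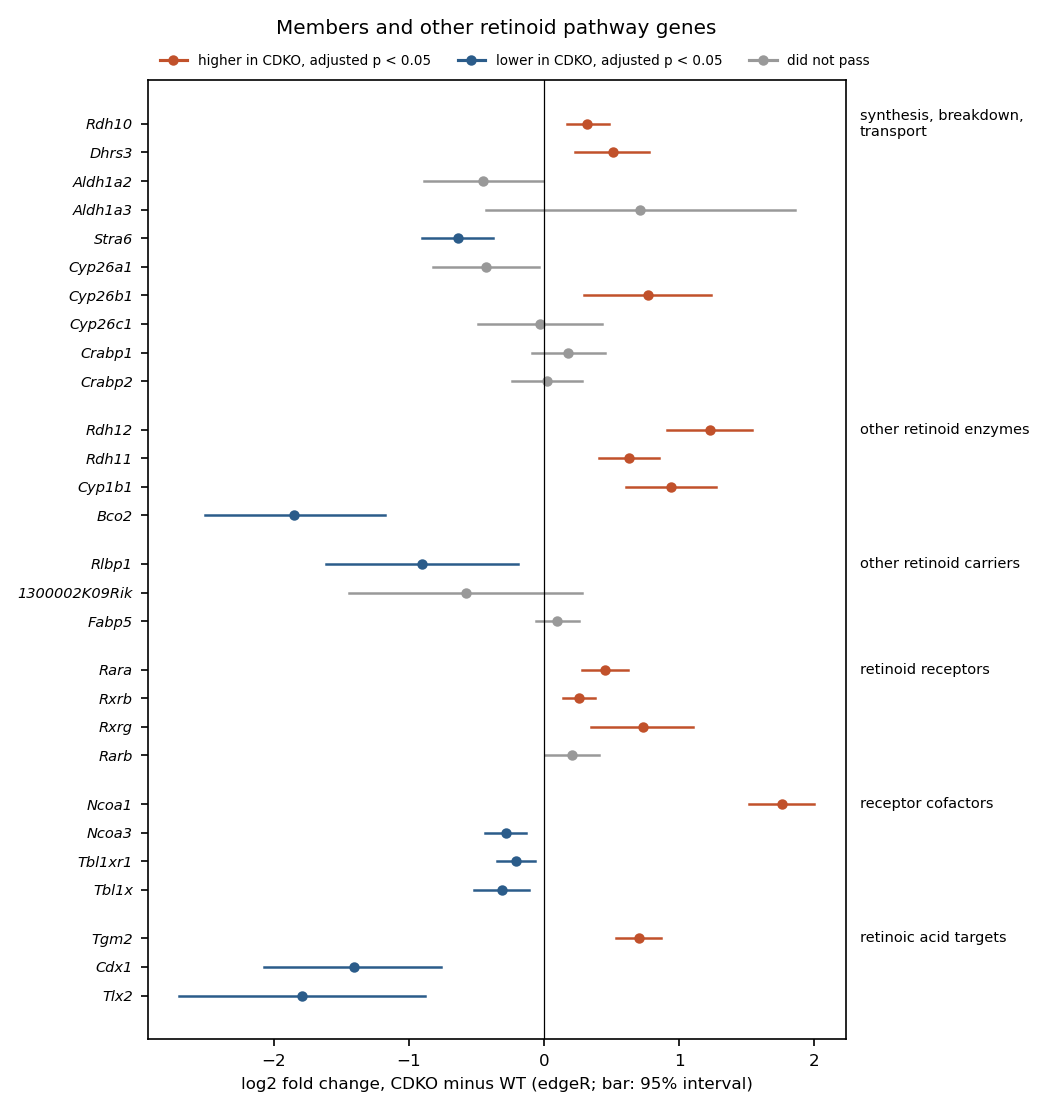
Log2 fold change of CDKO minus WT with its 95% interval for the 10 members and for other pathway genes with the lowest p in each list; red is higher, blue lower, grey did not pass an adjusted p of 0.05. Ncoa1 (1.76) lies farthest to the right and Bco2 (-1.85) farthest to the left.

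Lateral plate and sinus venosus markers, from tissues in which Aldh1a2 and several retinoic acid targets are known to be expressed, were mostly higher. Of 12 markers 9 rose and none fell, 75% called beside 51.5% of all genes tested (26.6% as higher). Summed levels were 315 to 460 CPM in wild type and 596 to 753 CPM in the mutant-labelled embryos, and none was at 0. Aldh1a2 had no such rise, as described above. The part of this tissue in the values of Tgm2, Rdh10 and Dhrs3 was not tested. Primitive red cell markers ranged from 814 to 1360 CPM in sum in wild type and from 39.2 to 1730 CPM in the other group. Their mean log2 level was 3.82 to 4.41 in wild type and 4.03 to 4.47 in mutant-labelled embryos 1, 7 and 8. It was 2.51 to 3.13 in mutant-labelled embryos 3 to 6 and 1.04 in embryo 2. Of 9 tested, none passed, beside 51.5% of all genes tested. The tenth, Hba-a1, had no count in any of the 12 embryos.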

How the data were processed

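The authors deposited a table of raw read counts with 1 row per gene symbol. FastQC, STAR, DESeq2, featureCounts and the build mm9 are named, per the submitters' processing notes, with no versions; the annotation, strand setting and handling of multi-mapped reads are not stated there. Embryos were grouped by the genotype label and numbered in sample order, which pairs nothing; p-values measure the spread between embryos, and shared litters cannot be told apart from it. No pair of libraries within a group agreed within sampling noise (lowest chi-square per degree of freedom 3.89).

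The test was edgeR's robust quasi-likelihood F test with TMM scaling, filterByExpr and no covariate (edgeR 4.0.16, R 4.3.3), and Benjamini-Hochberg adjustment over 14412 genes at a threshold of 0.05. SE is the log2 fold change divided by the square root of F; log2 levels add 0.5 to CPM. The test was run on simulated counts of 14305 genes, few of them changed. It recovered 43 of 61 genes changed 1.5-fold, 60 of 70 changed 2-fold and 62 of 63 changed 4-fold. Of 169 genes called there, 4 were unchanged. With so few genes changed, the simulation cannot check the test where 51.5% of genes are called, nor for folds under 1.5. The members and lists were chosen with earlier results of these data known. Named genes are the members, Tgif1, Tgif2, up to 4 genes of lowest p per pathway list and the nearest profiles; of tissue lists, levels are given. Some genes that this rule picks are not reported here. The alternatives were other scalings, DESeq2 1.42.0, limma 3.58.1 (voom), other filters, and omitted embryos. The omission of mutant-labelled embryos 7 and 8 was chosen after seeing the data. No member has a near-identical copy (at least 200 bases at 95% identity, BLAST 2.17.0, GENCODE M21 transcripts), and none shares exon bases with another gene there. Of 188 listed symbols, 185 matched directly and 3 through a synonym.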

Additional observations from a re-analysis of the deposited data

Results flagged for a closer look

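In 2 of 78 groups of embryos, taken over the members, other named genes and tissue marker lists, 1 embryo lay far from the rest, and chance alone sets apart roughly 1 group in 20 at this limit; none of the 20 groups of members was among them. Both were mutant-labelled embryo 2. Its tail bud markers had a mean log2 level of 1.6, against 3.14 to 4.01 in the rest of its group, and its level of the retinol receptor gene 1300002K09Rik (Stra6l) was 0.143 CPM, against 2.02 to 3.3 CPM.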

How the results depend on the processing

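No paired analysis was possible because the labels give no litter or pairing of embryos. Rdh10, Dhrs3, Cyp26b1 and Stra6 kept their direction and their call in all 24 alternatives. The number of members called was 4, and 7 with sample quality weights in limma-voom, where Aldh1a2, Cyp26a1 and Crabp1 passed as well. The number that fell was 1, and 2 with DESeq2, with limma-voom, without robust estimation, after GC and length trends were taken out, with mutant-labelled embryo 2 and wild-type embryo 1 left out, and with mutant-labelled embryos 7 and 8 left out; it was 3 with sample quality weights. Leaving out 1 embryo gave 1 to 2. The gene added was Aldh1a2 or Cyp26a1. Of the other pathway genes 11 fell, and 17 after those trends were taken out. Cyp26c1 changed sign with sample quality weights (0.12), with mutant-labelled embryo 2 and wild-type embryo 1 left out (0.07), without mutant-labelled embryos 7 and 8 (0.11), and over the fits without 1 embryo (-0.16 to 0.12). Crabp2 changed sign after those trends were taken out (-0.03), without mutant-labelled embryos 7 and 8 (-0.06), and over the fits without 1 embryo (-0.04 to 0.07). The cause was not tested. No scaling moved the median of all genes by more than 0.1. Genes under 1 CPM rest on few counts.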
